A study of Homo sapiens with 50 samples.

Results

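The thin filament of heart muscle was followed through 7 of its genes in differentiating human embryonic stem cells: the troponins TNNT2, TNNI1, TNNI3 and TNNC1, the tropomyosin TPM1, and the sarcomeric actins ACTC1 and ACTA1. They were chosen by gene symbol, each symbol stood in 1 row of the deposited tables, and all 7 of the 57905 genes listed passed the filter on low values in both tables. RNA of H1, an established and unmodified embryonic stem cell line, gave 50 sequenced libraries in 25 groups of 2. One group was undifferentiated (day 0), and on each of days 3, 5, 7 and 11 there were 6 others: a differentiation control and cultures given HCl, NaHCO3, IWP2, IWP2 with NaHCO3, or IWP2 with NaHCO3 and 2-DG. All groups after day 0 are labelled as cardiac differentiation. HCl is a strong acid and NaHCO3, sodium bicarbonate, a weak base. IWP2 is an inhibitor of WNT ligand secretion, and 2-DG, or 2-deoxyglucose, is a glucose analogue that blocks glycolysis. Doses, times of addition and the pH reached are not given in the sources used here, and 2-DG was used only together with IWP2 and NaHCO3. The labels do not say whether the 2 libraries of a group came from separate cultures, so the p-values measure only the spread between these libraries.

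The thin filament is the calcium switch of the heartbeat. Its backbone is actin, along which tropomyosin lies as a strand that covers the binding sites for myosin. The troponin complex sits on tropomyosin: troponin C binds calcium, troponin I holds the filament off in its absence, and troponin T ties the complex to tropomyosin. In the developing heart the slow skeletal isoform of troponin I (TNNI1) comes first and the cardiac isoform (TNNI3) replaces it late, so that cultured heart muscle cells from stem cells usually carry mostly TNNI1. ACTC1, cardiac alpha-actin, is the main actin of heart muscle, whereas ACTA1, skeletal alpha-actin, is the main actin of skeletal muscle and is also made in the heart. Genes of the contractile apparatus are classic targets of serum response factor (SRF), which binds a DNA element called the CArG box and works with partners such as myocardin (MYOCD).

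On GRCh37, the build of the deposited tables, TNNT2 (ENSG00000118194) lies at chr1:201328136-201346890 and TNNI1 (ENSG00000159173) close to it at chr1:201373625-201398994, both on the minus strand. TNNI3 (ENSG00000129991) lies at chr19:55663137-55669141 and TNNC1 (ENSG00000114854) at chr3:52485118-52488086, both on the minus strand. TPM1 (ENSG00000140416) lies at chr15:63334831-63364114 on the plus strand. ACTC1 (ENSG00000159251) lies at chr15:35080297-35088340 and ACTA1 (ENSG00000143632) at chr1:229566992-229569845, both on the minus strand. An antisense gene inside TPM1, RP11-244F12.3, reached 1703 counts in a library and LAD1, which overlaps TNNT2 on the same strand, reached 241. The use of strand in counting is not stated, so reads of TPM1 and of that antisense gene cannot be told apart. The coding sequences of the alpha-actins and of their smooth muscle relatives are nearly identical, and how reads that match several genes were counted is not given in the sources used here, so the division of reads among actin genes is uncertain.

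The stretches just before the start sites of ACTA1, ACTC1 and TNNT2 are shown. The actin pair was chosen because it shares a CArG box and a TATA element there. TNNT2 was added because it was the lowest of the 7 by FPKM with HCl on day 5, where ACTA1 was the highest. By the length of the principal transcript, TPM1 was the highest in that group and TNNI1 the lowest. The part of these elements in the levels was not tested. The sequences are the 250 bases before the start in RefSeq on GRCh38.p14, read 5′ to 3′ on the minus strand, at chr1:229434095-229434344 (ACTA1), chr15:34795550-34795799 (ACTC1, the first of its 3 listed starts) and chr1:201377681-201377930 (TNNT2). Capitals mark the CArG box, the TATA element TATAAA, and the TEAD element CATTCC read on either strand.
ACTA1: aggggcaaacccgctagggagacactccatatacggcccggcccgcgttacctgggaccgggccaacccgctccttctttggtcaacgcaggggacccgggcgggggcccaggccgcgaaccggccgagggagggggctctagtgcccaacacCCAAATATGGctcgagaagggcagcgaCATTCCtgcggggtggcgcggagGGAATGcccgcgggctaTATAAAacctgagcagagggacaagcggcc
ACTC1: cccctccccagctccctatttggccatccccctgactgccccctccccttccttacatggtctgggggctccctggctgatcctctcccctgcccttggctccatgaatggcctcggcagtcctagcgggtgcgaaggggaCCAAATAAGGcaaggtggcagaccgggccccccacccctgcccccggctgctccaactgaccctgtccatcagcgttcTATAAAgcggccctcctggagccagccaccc
TNNT2: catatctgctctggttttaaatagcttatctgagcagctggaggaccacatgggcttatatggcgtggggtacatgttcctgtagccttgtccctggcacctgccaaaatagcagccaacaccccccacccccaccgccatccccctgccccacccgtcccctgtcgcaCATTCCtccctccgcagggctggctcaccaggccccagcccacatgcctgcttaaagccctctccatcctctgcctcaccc
The CArG box was searched by its standard consensus on both strands. ACTA1 held it as CCAAATATGG from 97 to 88 bases before the start and ACTC1 as CCAAATAAGG from 109 to 100 bases before. Such a box stood in 1.16% of the 35116 promoters of the same length. TATAAA stood from 30 to 25 bases before the start of ACTA1 and from 31 to 26 before that of ACTC1, and either strand of it in 10.72% of all promoters. CATTCC, the core of the element bound by TEAD factors, stood in ACTA1 at 70 to 65 bases before the start and on the opposite strand at 47 to 42. It stood in TNNT2 at 81 to 76 and before the third listed start of ACTC1, not shown, at 174 to 169. On either strand it stood in 11.89% of all promoters. AGATAA, a form of the GATA element, was found in the promoters of TNNT2 (1 match) and TNNI3 (2 matches) and in 9.17% of all promoters. A MEF2 site was also searched and was found in no promoter of these genes, against 2.8% of all promoters. None of these motifs was found in the window of TPM1, and 5 of the 7 genes had a RefSeq promoter here. TNNI1 and TNNC1 did not.

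Levels are FPKM, the deposited values scaled by exonic gene length and by library total, and are given for both libraries of a group. Log2 fold changes and adjusted p-values come from edgeR's quasi-likelihood test on the counts with a Benjamini-Hochberg adjustment over all genes of a comparison. That test prints no standard error. The value after ± of a log2 change is therefore its size divided by the square root of the F statistic. It only approximates a standard error and can be too small where counts are few. A gene is said to have risen or fallen where the adjusted p was under 0.05 and the log2 fold change at least 1 in size. After each count of members stands the percentage of all genes tested that passed the same rule in either direction. The share in 1 direction is added in some of the comparisons where all members called went that way. The libraries of days 3 and 5 held 14794134 to 22796553 counts. Those of days 7, 11 and 0, deposited in a separate table, held 14090004 to 20445875. Tests were made only within a table. Levels are also set side by side across the tables, but the change from day 5 to day 7 was not tested. The median log2 change of all genes lay between -0.035 and 0.0647 in every comparison. Against the labels, markers of pluripotent cells summed to 1831 to 1845 FPKM on day 0 and to between 12.0 and 44.2 on day 11, although every sample is labelled ESC. Markers of heart muscle other than these genes summed to 4.57 to 4.92 FPKM on day 0 and reached 6176 on day 11.

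**Figure D1:**
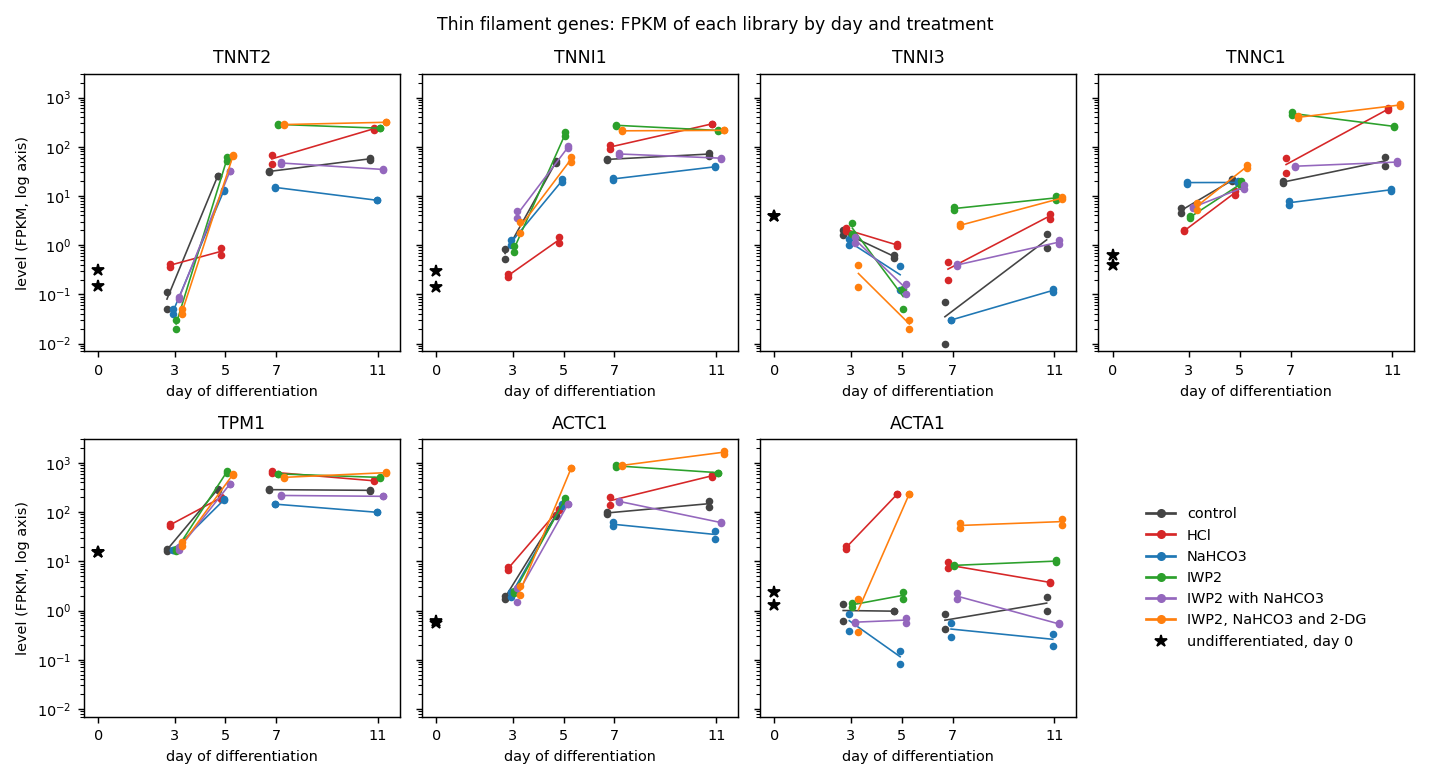
FPKM (log axis) of the 7 thin filament genes by day of differentiation; points are single libraries, shifted sideways by treatment, stars are undifferentiated cells and lines join the means of 2 libraries within a deposited table. A value of 0 is drawn at 0.01. The troponins TNNT2 and TNNI1 climb between days 3 and 5 in every treatment but least with HCl, ACTA1 is highest with HCl and with 2-DG on day 5 (232 and 237 FPKM in replicate 1), and TNNI3 is at most 1.07 FPKM in any library of day 5.

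In undifferentiated cells TPM1, which also serves the cytoskeleton of cells that are not muscle, was the highest of the 7 at 15.1 and 15.4 FPKM. The other members were low. TNNI3 stood at 3.83 and 3.86 FPKM and ACTA1 at 2.39 and 1.31. TNNT2 (0.31 and 0.15), TNNI1 (0.30 and 0.14), TNNC1 (0.64 and 0.40) and ACTC1 (0.55 and 0.60) were under 1 FPKM in both libraries. Together the 7 genes took 0.0147% and 0.0145% of all counts on day 0. That share rose to 0.342% and 0.357% in the control of day 7, to 1.40% and 1.32% with IWP2 on that day, and to its highest value, 1.82% and 1.73%, with 2-DG on day 11.

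In the control cultures 5 of the 7 genes were higher on day 7 than on day 0 and 2 were lower, where 34.9% of genes passed the rule. TNNT2, which anchors troponin to tropomyosin, reached 30.2 and 32.5 FPKM, and its log2 change was 6.92 ± 0.24 (adjusted p = 1.27e-13). TNNI1 reached 53.2 and 57.2 FPKM (7.79 ± 0.16, adjusted p = 3.38e-24), TNNC1 18.4 and 19.7 (5.02 ± 0.53, adjusted p = 8.71e-07) and ACTC1 91.1 and 101 (7.22 ± 0.29, adjusted p = 6.20e-12). TPM1 reached 283 and 290 FPKM (4.06 ± 0.07, adjusted p = 2.43e-29). For these 5 genes both libraries of day 7 lay above both of day 0. TNNI3, the isoform of the mature heart, went the other way: it held 0 and 0.07 FPKM on day 7, only 3 counts over both libraries, and had fallen from day 0 (adjusted p = 2.39e-14). ACTA1 fell as well, to 0.42 and 0.85 FPKM (-1.67 ± 0.45, adjusted p = 0.00299), but without the undifferentiated library of replicate 1 its change was no longer called.

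A rise of this kind was also seen from day 3 to day 5. In the control 5 members rose over those days and 1 fell, where 18.1% of genes passed the rule. TNNT2 was listed at 0.05 and 0.11 FPKM on day 3 and at 25.9 and 25.6 on day 5, a log2 change of 8.47 ± 0.20 (adjusted p = 3.53e-16). TNNI1 went from 0.83 and 0.52 to 51.1 and 47.1 FPKM (6.21 ± 0.29, adjusted p = 1.36e-12), and ACTC1 from 1.71 and 1.99 to 89.0 and 84.9 (5.61 ± 0.25, adjusted p = 1.04e-12). In all 3 genes the libraries of the days did not overlap. TPM1 rose from 16.2 and 18.1 to 299 and 286 FPKM (4.14 ± 0.15, adjusted p = 6.68e-14). TNNC1, which is also expressed outside striated muscle, was already at 4.54 and 5.63 FPKM on day 3 and rose to 21.6 and 19.99 (2.09 ± 0.19, adjusted p = 2.11e-08). TNNI3 fell, from 2.03 and 1.59 to 0.64 and 0.54 FPKM (-1.56 ± 0.40, adjusted p = 0.00376), and ACTA1 stayed between 0.62 and 1.38 FPKM in the 4 libraries (0.07 ± 0.47, adjusted p = 0.931).

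From day 7 to day 11 the control changed less: 2 of 7 members rose, where 10.4% of genes passed. TNNC1 went from 18.4 and 19.7 to 40.8 and 61.6 FPKM (1.49 ± 0.27, adjusted p = 0.000479). TNNI3 went from 0 and 0.07 to 0.88 and 1.68 FPKM. Its counts, 96 against 3, gave a ratio of 32.5 with an exact 95% interval of 10.8 to 160.5 that covers counting error only. The 2 control libraries of day 11 differed in the same direction in all 7 genes, with replicate 2 higher, and without replicate 1 the count became 4 through TNNT2 and ACTA1. On day 11 TNNI3 was still under its level of day 0 (-1.70 ± 0.24, adjusted p = 2.40e-07, where 39.4% of genes passed).

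HCl, NaHCO3 and IWP2 were each set against the same control libraries of the day, so these comparisons share their error on that side. Block of WNT signalling after mesoderm has formed is a common step toward heart muscle in culture, and the comparison of IWP2 with the control asks what it adds to these genes. On day 3, 0 of the 7 passed edgeR's test (0.613% of genes did), 1 of them, TNNT2, had an unadjusted p under 0.05, and DESeq2 and limma called 0 as well. TNNT2 held 0.02 and 0.03 FPKM against 0.05 and 0.11. On day 5, 4 rose and 1 fell, where 6.77% of genes passed. TNNT2 stood at 60.8 and 51.8 FPKM against 25.9 and 25.6 (1.14 ± 0.12, adjusted p = 1.32e-06), and TNNI1 at 196 and 162 against 51.1 and 47.1 (1.87 ± 0.22, adjusted p = 4.15e-06). TPM1 stood at 699 and 630 FPKM, its highest group mean of day 5 (1.19 ± 0.14, adjusted p = 2.42e-06). In each of these genes both IWP2 libraries exceeded both controls. ACTC1, at 196 and 170 FPKM, rose by 1.08 ± 0.20 (adjusted p = 0.000662) and TNNI3, at 0.05 and 0.13 FPKM, fell, and without the IWP2 library of replicate 1 neither was called. TNNC1, the calcium sensor, was at 19.9 and 15.7 FPKM against 21.6 and 19.99 (-0.22 ± 0.17, adjusted p = 0.495), with no call in either direction where TNNT2 and TNNI1 rose.

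By day 7 all 7 genes were higher with IWP2 than in the control, where 16.4% of genes passed the rule, 8.5% of all genes upward. TNNC1 stood at 504 and 446 FPKM against 18.4 and 19.7, the largest rise among the members with more than a few counts in the control (4.73 ± 0.28, adjusted p = 2.40e-09). TNNT2 stood at 293 and 276 against 30.2 and 32.5 FPKM (3.28 ± 0.16, adjusted p = 4.07e-11) and ACTC1 at 903 and 842 against 91.1 and 101 (3.28 ± 0.20, adjusted p = 3.72e-09). No IWP2 library overlapped a control library in any of the 7. TNNI1 stood at 282 and 263 FPKM (2.40 ± 0.10, adjusted p = 1.13e-16), and TPM1 at 606 and 591 (1.16 ± 0.06, adjusted p = 2.78e-16), the smallest rise of the set. ACTA1 stood at 8.32 and 8.22 FPKM (3.76 ± 0.35, adjusted p = 2.21e-08). TNNI3 reached 5.96 and 5.11 FPKM, 403 counts against 3 in the control, a ratio of 142.6 with an exact 95% interval of 48.4 to 694 for counting error. On day 11, 6 of 7 were higher with IWP2 (14.9% of genes passed, 6.24% upward), and TPM1, at 504 and 511 against 272 and 282 FPKM, missed the fold threshold (0.90 ± 0.06).

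The IWP2 effect itself moved between days. It was larger on day 5 than on day 3 for TNNT2, TNNI1 and TPM1, and more negative for TNNI3, 4 members where 4.52% of genes passed. Without IWP2 replicate 1 of day 5 the count fell to 2, and the calls of TNNT2, TNNI1 and TNNI3 were each lost without at least 1 single library. It was smaller on day 11 than on day 7 for TNNT2 (-1.19 ± 0.21, adjusted p = 0.000855), TNNI3 (-4.26 ± 0.64, adjusted p = 1.14e-05), TNNC1 (-2.37 ± 0.35, adjusted p = 0.000293) and ACTC1 (-1.16 ± 0.27, adjusted p = 0.00783), 4 members where 5.79% passed. The value of TNNI3 rests on 3 control counts on day 7: it ran from -7.81 to -0.49 over the alternatives and was not called with limma and a pseudocount of 1 (adjusted p = 0.104). Within the IWP2 cultures edgeR called 0 of the 7 from day 7 to day 11 (7.18% of genes passed). Of these 5 had an unadjusted and 4 an adjusted p under 0.05 without reaching the fold threshold, DESeq2 and limma called 0, and without IWP2 replicate 2 of day 7 TNNC1 was called. TNNC1 stood at 255 and 263 FPKM on day 11 after 504 and 446 on day 7 (-0.88 ± 0.23). In the cultures with IWP2, markers of heart muscle other than these genes summed to 5472 to 5970 FPKM on day 7 against 387 to 444 in the control. Liver and foregut markers summed to 158 to 417 FPKM on that day against 1733 to 1766 in the control (7 of 9 lower). Matrix markers summed to 338 to 518 against 2402 to 2518 (6 of 6 lower). In bulk RNA, fewer cells of a type and less RNA per cell cannot be told apart, and the part of these other cell types in the result was not tested.

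**Figure D2:**
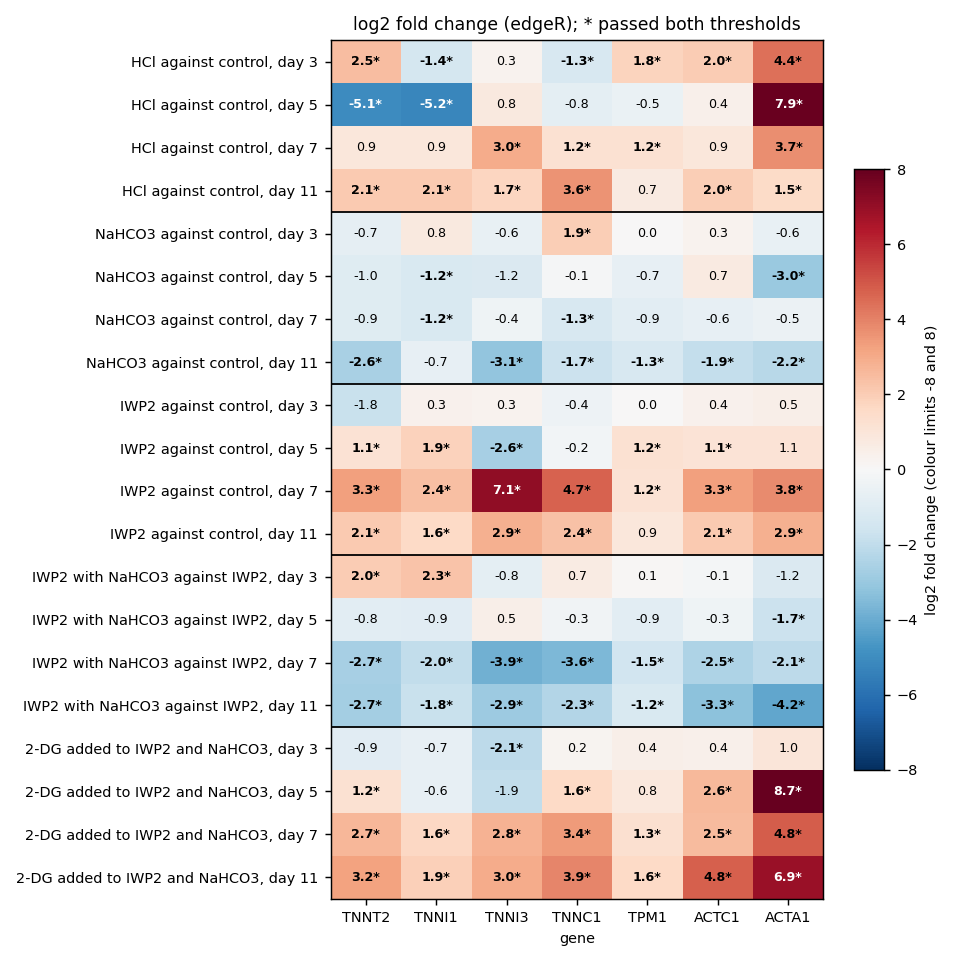
Log2 fold changes of the 7 thin filament genes (columns) in 5 comparisons on days 3, 5, 7 and 11 (rows); red is higher, blue is lower, and an asterisk marks an adjusted p under 0.05 with a log2 change of at least 1 in size. All 7 genes are red with IWP2 on day 7, all 7 are blue when NaHCO3 is added to IWP2 on days 7 and 11, and all 7 are red when 2-DG is added on days 7 and 11.

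HCl against the control asks what added acid does in the absence of IWP2. The answer differed by day and by gene. On day 3, 4 of the 7 rose and 2 fell, where 10.6% of genes passed. ACTA1 stood at 18.1 and 20.2 FPKM against 0.62 and 1.38 (4.40 ± 0.34, adjusted p = 1.24e-08). TPM1 stood at 51.1 and 58.5 against 16.2 and 18.1 (1.76 ± 0.14, adjusted p = 1.68e-08), and ACTC1 at 7.61 and 6.70 against 1.71 and 1.99 (2.04 ± 0.23, adjusted p = 1.60e-06). Both actins and tropomyosin were thus higher in both HCl libraries. TNNT2 rose to only 0.36 and 0.42 FPKM (2.48 ± 0.26, adjusted p = 7.80e-07). TNNC1 fell to 2.00 and 1.92 FPKM from 4.54 and 5.63 (-1.28 ± 0.23, adjusted p = 0.000274). TNNI1 fell to 0.26 and 0.22 FPKM, a call that was lost without replicate 1 of the control or replicate 2 of HCl.

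On day 5 the same comparison split the set: ACTA1 rose, TNNT2 and TNNI1 fell, and the other 4 did not pass the rule, where 20% of genes did. ACTA1 stood at 232 and 229.9 FPKM with HCl against 0.98 and 0.96 in the control, a log2 change of 7.93 ± 0.35 (adjusted p = 6.21e-13). TNNT2 stood at 0.63 and 0.86 FPKM against 25.9 and 25.6 (-5.06 ± 0.15, adjusted p = 8.34e-15), and TNNI1 at 1.11 and 1.45 against 51.1 and 47.1 (-5.22 ± 0.27, adjusted p = 6.98e-12). No libraries of the 2 groups overlapped in these 3 genes. ACTC1, by contrast, was at 111 and 117 FPKM against 89.0 and 84.9 (0.43 ± 0.20, adjusted p = 0.0962). TPM1 was at 189 and 203 against 299 and 286 FPKM (-0.54 ± 0.13, adjusted p = 0.00269) and TNNC1 at 10.6 and 12.9 against 21.6 and 19.99 (-0.79 ± 0.17, adjusted p = 0.00104), both short of the fold threshold. The HCl cultures of day 5 therefore held actin and tropomyosin transcripts above 100 FPKM beside TNNT2 and TNNI1 under 2. Markers of heart muscle other than these genes summed to 437 to 451 FPKM with HCl against 492 to 496 in the control. Genes of the thick filament, some of them among those markers, summed to 331 to 341 against 486 to 489. The sum of the heart muscle markers thus does not show how single markers moved. Marker sums of other cell types moved as well. Liver and foregut markers summed to 4.39 to 5.71 FPKM with HCl against 284 to 341 (7 of 8 tested lower), matrix markers to 81.1 to 84.9 against 859 to 984 (5 of 6 lower), and pluripotent cell markers to 427 to 429.9 against 294 to 314 (4 of 6 higher). Their part in the result was not tested.

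The effect of HCl differed between days 3 and 5 in 5 members, where 16.4% of genes passed: it was more positive on day 5 for ACTA1 (3.53 ± 0.54, adjusted p = 4.62e-05) and more negative for TNNT2, TNNI1, TPM1 and ACTC1. TNNT2 showed the largest difference (-7.54 ± 0.29, adjusted p = 3.23e-12), since it rose with time by 8.47 in the control and by 0.94 ± 0.18 with HCl, the latter short of the fold threshold. ACTC1 did rise with time in HCl, from 7.61 and 6.70 to 111 and 117 FPKM (4.0 ± 0.23, adjusted p = 1.41e-10, where 11.6% of genes passed). TNNC1 rose there too, by 2.59 ± 0.22 (adjusted p = 2.77e-08). TPM1, ACTA1 and TNNI1 also rose with time in HCl, TNNI1 only to 1.11 and 1.45 FPKM, and TNNI3 fell. In all 5 members were higher and 1 was lower. The call of TNNI3 was lost in 9 alternatives and that of TNNI1 in 1.

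By day 7 the troponins of the HCl cultures stood at or above the control. TNNT2 was at 44.5 and 68.7 FPKM against 30.2 and 32.5, and TNNI1 at 88.9 and 108 against 53.2 and 57.2. In both genes the HCl libraries lay above the control without reaching the fold threshold. Of the 7 genes 4 rose, where 14.3% passed and 6.36% upward: TNNI3, TNNC1, TPM1 and ACTA1. TPM1 stood at 624 and 674 FPKM against 283 and 290 (1.23 ± 0.06, adjusted p = 8.56e-17), and ACTA1 at 7.16 and 9.68 against 0.42 and 0.85 (3.73 ± 0.35, adjusted p = 3.04e-08). The HCl libraries differed from each other, with replicate 2 higher in all 7 genes and TNNC1 at 28.7 and 58.1 FPKM. Without HCl replicate 1 all 7 genes were called, and without replicate 2 only 2, TPM1 and ACTA1. The 24 counts of TNNI3 with HCl against 3 in the control gave a ratio of 8.11 with an interval of 2.46 to 42.1. Liver and foregut markers summed to 46.2 to 59.0 FPKM with HCl on day 7 against 1733 to 1766 in the control. Matrix markers summed to 399.8 to 428 against 2402 to 2518, and markers of heart muscle other than these genes to 962 to 1327 against 387 to 444. The part of these markers in the result was not tested.

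On day 11 HCl cultures had 6 of 7 members higher than the control, where 21.1% of genes passed and 8.37% upward. TNNC1 stood at 601 and 551 FPKM against 40.8 and 61.6 (3.57 ± 0.26, adjusted p = 1.81e-08), TNNT2 at 242 and 219 against 53.6 and 60.3 (2.10 ± 0.15, adjusted p = 5.14e-09), and TNNI1 at 296 and 284 against 66.2 and 75.5 (2.12 ± 0.10, adjusted p = 8.89e-16). ACTC1 stood at 563 and 526 FPKM against 130 and 167 (1.96 ± 0.19, adjusted p = 5.68e-07). The HCl libraries were above the control ones in all of these. TPM1, at 445 and 422 against 272 and 282 FPKM, missed the fold threshold (0.73 ± 0.06). ACTA1 was now at only 3.80 and 3.67 FPKM, above the control's 0.99 and 1.84 (1.5 ± 0.34, adjusted p = 0.000922) and lower than on day 7 (-1.07 ± 0.25, adjusted p = 0.00143, where 21.6% of genes passed), where without HCl replicate 2 of day 7 that fall missed the fold threshold. The effect of HCl was larger on day 11 than on day 7 for TNNT2, TNNI1, TNNC1 and ACTC1 and smaller for ACTA1 (-2.23 ± 0.54, adjusted p = 0.00238), 5 members where 17.1% of genes passed. Markers of heart muscle other than these genes summed to 5609 to 5711 FPKM with HCl on day 11 against 551 to 783 in the control. Liver and foregut markers summed to 260.2 to 423 FPKM against 4967 to 5915 (9 of 9 lower). Matrix markers summed to 356 to 369.7 against 3203 to 3215 (6 of 6 lower). Mitochondrial genes took 9.87% and 9.75% of counts with HCl on that day against 3.81% and 3.95% in the control. With IWP2 they took 7.54% and 7.85%, with 2-DG 9.41% and 8.97%, and with NaHCO3 alone 2.55% and 2.40%. The part of these markers and of the mitochondrial share in the results of day 11 was not tested.

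HCl alone and IWP2 alone could be set against each other directly. On day 5, 5 members differed, where 21.3% of genes did: TNNT2 (-6.20 ± 0.16, adjusted p = 6.33e-16), TNNI1 (-7.09 ± 0.29, adjusted p = 2.19e-13) and TPM1 were lower with HCl, and ACTA1 and TNNI3 higher. On day 7 the 4 troponins and ACTC1 were lower with HCl, 5 members where 13.1% of genes passed, whereas TPM1 (0.07 ± 0.06, adjusted p = 0.341) and ACTA1 (-0.02 ± 0.23, adjusted p = 0.962) did not pass. On day 11 TNNC1 was higher with HCl, at 601 and 551 FPKM against 255 and 263 (1.21 ± 0.23, adjusted p = 0.00107), and TNNI3 and ACTA1 were lower, 3 members where 6.56% of genes passed. TNNI3 stood at 4.35 and 3.47 FPKM with HCl against 8.40 and 9.84 (-1.16 ± 0.20, adjusted p = 2.45e-05). TNNT2, at 242 and 219 against 235 and 241 FPKM, overlapped between the 2 treatments (0.02 ± 0.15, adjusted p = 0.962).

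NaHCO3 against the control asks the same of a base. On day 3 only TNNC1 rose, to 19.6 and 17.7 FPKM from 4.54 and 5.63 (1.94 ± 0.19, adjusted p = 6.98e-07), where 4.08% of genes passed. On day 5 TNNI1 fell to 21.7 and 19.0 FPKM from 51.1 and 47.1 (-1.23 ± 0.22, adjusted p = 0.000438) and ACTA1 to 0.08 and 0.15 from 0.98 and 0.96, where 6.39% passed, and the call of ACTA1 was lost without NaHCO3 replicate 1. TNNT2 was at 13.3 and 12.6 FPKM, under both control libraries but short of the fold threshold (-0.95 ± 0.12, adjusted p = 1.30e-05). ACTC1 was higher in both libraries, at 134 and 144 FPKM against 89.0 and 84.9, also short of it (0.71 ± 0.20, adjusted p = 0.0191). On day 7 TNNI1 (20.7 and 23.5 FPKM) and TNNC1 (7.99 and 6.54 FPKM) fell, 2 members where 10.2% of genes passed, and without NaHCO3 replicate 2 TNNC1 was not called.

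By day 11, 6 of 7 members were lower with NaHCO3 than in the control, where 16.9% of genes passed and 10.2% downward. TNNT2 stood at 8.19 and 8.16 FPKM against 53.6 and 60.3 (-2.60 ± 0.16, adjusted p = 9.30e-10), and ACTC1 at 28.7 and 41.7 against 130 and 167 (-1.88 ± 0.20, adjusted p = 1.26e-06). TPM1 stood at 99.9 and 98.8 FPKM, its lowest level of the days 5 to 11 (-1.28 ± 0.06, adjusted p = 4.44e-17). In these genes every NaHCO3 library lay under every control library. TNNC1 was at 13.8 and 12.9 FPKM (-1.74 ± 0.28, adjusted p = 0.000101), TNNI3 at 0.13 and 0.11 (-3.15 ± 0.46, adjusted p = 8.62e-07) and ACTA1 at 0.33 and 0.19 (-2.22 ± 0.60, adjusted p = 0.00411). TNNI1 was the exception, at 38.3 and 39.7 against 66.2 and 75.5 FPKM (-0.66 ± 0.10). Markers of heart muscle other than these genes summed to 68.1 to 70.05 FPKM with NaHCO3 against 551 to 783 in the control. Matrix markers summed to 6827 to 7022 FPKM against 3203 to 3215 (4 of 6 higher), and the part of these markers in the result was not tested.

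Adding NaHCO3 to IWP2 lowered the whole set on the later days. On day 3 it raised TNNI1 (4.84 and 3.61 FPKM against 0.98 and 0.74, 2.30 ± 0.26, adjusted p = 7.62e-06) and TNNT2, which held 0.08 and 0.09 FPKM, 2 members where 3.19% of genes passed. The TNNT2 call rested on 5 counts with IWP2 and was lost without any 1 of the 4 libraries. On day 5 ACTA1 alone fell, to 0.56 and 0.72 FPKM from 1.69 and 2.39, where 5.81% passed, and its call was lost without IWP2 replicate 2 or either library with NaHCO3. On day 7 all 7 genes were lower than with IWP2 alone, where 16.7% of genes passed and 8.29% downward. TNNC1 stood at 39.6 and 40.7 FPKM against 504 and 446 (-3.62 ± 0.26, adjusted p = 2.34e-08), and TNNT2 at 45.0 and 48.4 against 293 and 276 (-2.66 ± 0.16, adjusted p = 4.43e-10). TPM1 changed least, at 214 and 222 against 606 and 591 FPKM (-1.51 ± 0.06, adjusted p = 1.23e-18). No library overlapped between the groups in any member.

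On day 11 all 7 were again lower, where 18.5% of genes passed and 8.7% downward. ACTC1 stood at 60.6 and 62.2 FPKM with both agents against 636 and 631 with IWP2 (-3.30 ± 0.21, adjusted p = 3.21e-09), and ACTA1 at 0.52 and 0.55 against 10.5 and 9.69 (-4.15 ± 0.35, adjusted p = 5.74e-09). TNNT2 stood at 35.7 and 33.4 against 235 and 241 FPKM (-2.72 ± 0.16, adjusted p = 3.13e-10). With both agents the actins also fell from day 7 to day 11, ACTC1 by 1.31 and ACTA1 by 1.75 on the log2 scale, while TNNI3 rose by 1.68 ± 0.35, 3 members where 11.1% of genes passed. Liver and foregut markers summed to 4810 to 5151 FPKM with both agents against 170 to 187 with IWP2 on day 11 (8 of 9 higher) and matrix markers to 3643 to 3716 against 649 to 712 (6 of 6 higher). Their part in the result was not tested.

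Whether NaHCO3 acted differently with IWP2 than without was tested as a difference of effects. On day 5 it differed for ACTC1 alone (-1.06 ± 0.28, adjusted p = 0.0303), where 3.94% of genes passed, and that call was lost without any 1 of 7 of the 8 libraries. The exception was replicate 2 of IWP2. On day 7 the effect of NaHCO3 was more negative with IWP2 for TNNT2 (-1.71 ± 0.21, adjusted p = 8.59e-06), TNNC1 (-2.35 ± 0.41, adjusted p = 0.000408) and ACTC1 (-1.82 ± 0.27, adjusted p = 7.98e-05), 3 members where 14.6% of genes passed. On day 11 it was more negative with IWP2 for TNNI1 (-1.14 ± 0.14, adjusted p = 1.46e-07) and ACTC1 (-1.42 ± 0.27, adjusted p = 0.000576), 2 members where 18.1% passed. TNNT2 on day 11 showed no such difference past the rule (-0.11 ± 0.22, adjusted p = 0.723).

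2-DG was added to IWP2 and NaHCO3, and its comparator is those 2 agents without it. On day 3 only TNNI3 changed, falling to 0.39 and 0.14 FPKM from 1.46 and 1.10 (-2.12 ± 0.48, adjusted p = 0.00589), where 3.59% of genes passed. That call was lost without replicate 1 of the comparator. The libraries with 2-DG of day 3 lay apart, with ACTA1 at 1.70 and 0.37 FPKM, and the count became 2 with either of them left out, through TNNI1 without replicate 1 and through ACTA1 without replicate 2.

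On day 5 the response to 2-DG was strongest in the actins. ACTA1 stood at 237 and 233 FPKM against 0.56 and 0.72 without 2-DG (8.70 ± 0.36, adjusted p = 5.29e-13), and ACTC1 at 792 and 777 against 149 and 146 (2.58 ± 0.21, adjusted p = 7.98e-09). TNNC1 rose to 43.4 and 37.1 FPKM from 13.7 and 16.5 (1.59 ± 0.17, adjusted p = 3.17e-07) and TNNT2 to 66.6 and 65.6 from 32.4 and 32.3 (1.20 ± 0.12, adjusted p = 1.67e-07). Every library with 2-DG lay above every one without it in these 4 genes, 4 of 7 where 16.5% of genes passed and 7.04% upward. TPM1, at 605 and 574 against 371 and 379 FPKM, missed the fold threshold (0.83 ± 0.13). TNNI1 lay the other way, at 62.5 and 49.9 against 95.1 and 102 FPKM (-0.64 ± 0.22, adjusted p = 0.0247), also short of it.

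The ACTA1 levels of the HCl and 2-DG cultures of day 5, 232 and 229.9 against 237 and 233 FPKM, lay close together although the cultures shared no agent. The rest of the set did not: ACTC1, TNNT2 and TNNI1 were all higher with IWP2, NaHCO3 and 2-DG than with HCl. These groups have different comparators and were not tested against each other. Some of the 8 smooth muscle markers moved with ACTA1 in both. TAGLN, a calponin-related actin binder of smooth muscle, stood at 671 to 702 FPKM with HCl against 27.1 to 27.8 in the control, and at 649 to 691 with 2-DG against 16.4 to 17.1 without. CNN1, calponin, stood at 101 to 110 FPKM against 5.41 to 6.43 and at 146 to 149 against 6.61 to 8.28. The 8 smooth muscle markers together summed to 802 to 842 FPKM with HCl against 112 to 123, and to 987 to 1034 with 2-DG against 82.0 to 86.4. TAGLN made up most of the sums with HCl and with 2-DG. Of the 7 of them tested, 4 were higher with HCl and 1, ACTA2, was lower, where 20% of genes passed. With 2-DG 6 were higher, where 7.04% passed upward. MYH11, the defining myosin of smooth muscle, reached only 0.38 FPKM in these groups, and the part of these markers in the result was not tested.

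**Figure D3:**
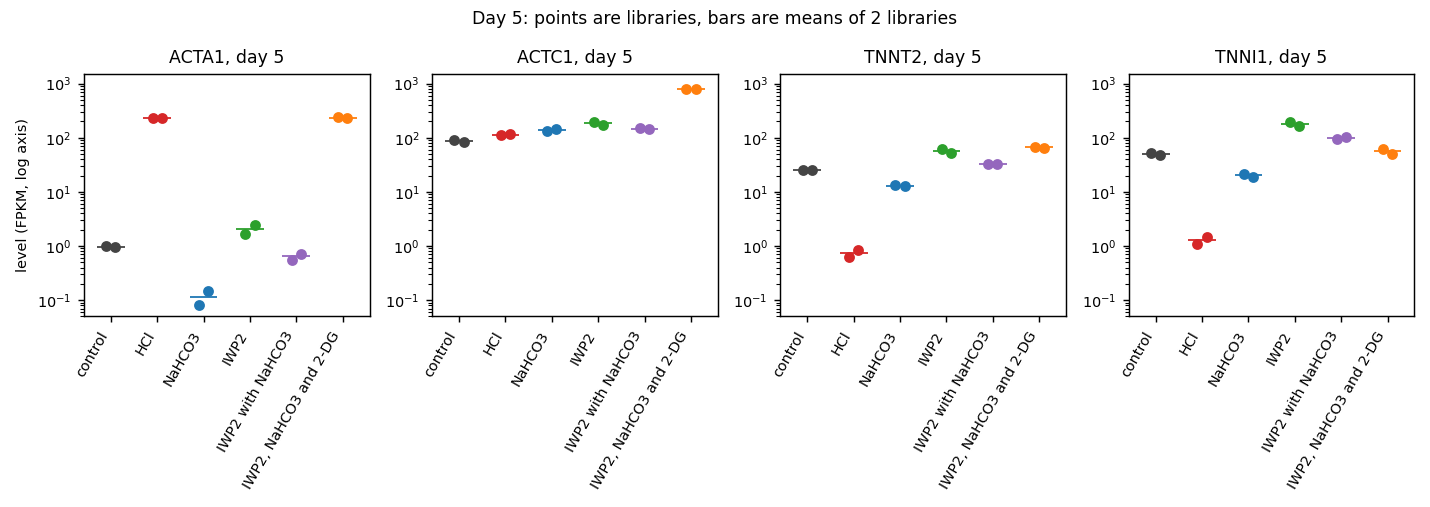
FPKM (log axis) of ACTA1, ACTC1, TNNT2 and TNNI1 on day 5 in the 6 treatments; points are the 2 libraries of a group and bars their mean. ACTA1 stands between 229.9 and 237 FPKM with HCl and with 2-DG and at most at 2.39 in the other groups, while TNNT2 and TNNI1 are lowest with HCl, at most 0.86 and 1.45 FPKM.

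MYOD1, MYF5 and MYOG, which direct skeletal muscle formation, were low in every library. MYOD1 reached at most 0.11 FPKM in any library and was at 0 in 42 of 50, MYF5 reached at most 0.09 and MYOG at most 0.38. PAX7, a factor of muscle stem cells that neural cells also make, reached 4.47 FPKM and was at 0 in 4 of 50, and ACTN3, an alpha-actinin of fast muscle, reached 13.8. Among the 12 skeletal muscle markers CKM, the muscle creatine kinase that heart muscle also makes, was the highest, with up to 240.4 FPKM, and the embryonic myosin MYH3 stayed at or under 0.48. Summed, the skeletal list stood at 10.6 to 11.3 FPKM with HCl on day 5 against 5.16 to 5.58 in the control. With 2-DG it stood at 2.15 to 2.67 on that day against 4.97 to 5.15 without 2-DG. On day 11 it stood at 220 to 243 with 2-DG against 6.77 to 7.56 without. In the library with the sum of 243, CKM alone held 240.4 FPKM.

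On days 7 and 11 the whole set was higher with 2-DG than without: 7 of 7 members on day 7, where 16.3% of genes passed and 7.1% upward, and 7 of 7 on day 11, where 21.1% passed and 9.32% upward. ACTA1 stood at 46.6 and 60.5 FPKM on day 7 against 2.23 and 1.69 (4.84 ± 0.25, adjusted p = 3.61e-12), and at 73.0 and 55.3 on day 11 against 0.52 and 0.55 (6.92 ± 0.30, adjusted p = 1.57e-13). ACTC1 stood at 1758 and 1549 FPKM on day 11 against 60.6 and 62.2 (4.77 ± 0.22, adjusted p = 6.95e-11), its highest level in any group. TNNC1 stood at 732 and 678 FPKM against 47.0 and 50.5 (3.88 ± 0.26, adjusted p = 7.96e-09), also its highest. TNNT2, at 312 and 316 against 35.7 and 33.4 FPKM (3.2 ± 0.16, adjusted p = 3.56e-11), and TPM1, at 626 and 640 against 209 and 210 (1.62 ± 0.06, adjusted p = 7.10e-20), showed the same direction in both libraries. From day 7 to day 11 with 2-DG, TNNI3 alone rose, from 2.40 and 2.66 to 9.60 and 8.49 FPKM (1.9 ± 0.21, adjusted p = 7.96e-09), where 9.85% of genes passed. Liver and foregut markers summed to 185 to 196 FPKM with 2-DG against 4810 to 5151 without on day 11 (8 of 9 lower), and their part in the result was not tested.

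The 2 troponin I genes were far apart wherever heart muscle transcripts were high. With IWP2 on day 7, TNNI3 was 0.0203 ± 0.00117 (SD, n = 2) of TNNI1 per length within a library, and on day 11 it was 0.0425 ± 0.00443. With 2-DG the ratio was 0.0120 ± 0.00119 on day 7 and 0.0421 ± 0.00334 on day 11, and with HCl on day 11 it was 0.0135 ± 0.00175. TNNI1 was thus the main troponin I transcript in each of these groups. On day 3 with NaHCO3 the ratio was 1.02 ± 0.0409, with both near 1 FPKM, and per principal transcript length it was 1.97. IWP2 on day 11 was the group of highest TNNI3 together with 2-DG, at 8.40 and 9.84 and at 9.60 and 8.49 FPKM, and these overlapped. Against undifferentiated cells, TNNI3 with IWP2 on day 11 was higher by 1.17 ± 0.20 (adjusted p = 3.86e-06), in a comparison where all 7 members rose and 40% of genes passed.

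The 2 alpha-actins changed order between days. With HCl, ACTA1 was 2.70 ± 0.457 (SD, n = 2) times ACTC1 per length on day 3 and 2.03 ± 0.0834 times on day 5. These were the groups with ACTA1 above ACTC1 among libraries with at least 1 FPKM of both genes. Under that limit, ACTA1 also exceeded ACTC1 in both undifferentiated libraries, at 2.39 and 1.31 against 0.55 and 0.60 FPKM. The ratio with HCl was 0.0498 ± 0.00199 on day 7 and 0.00686 ± 0.000160 on day 11. With 2-DG it was 0.2996 ± 0.00078 on day 5, 0.0599 ± 0.00870 on day 7 and 0.0386 ± 0.00413 on day 11. With IWP2 alone it lay between 0.00949 and 0.0159 on days 5 to 11. With HCl no library of a later day reached the ratio of any library of an earlier day, and the same held for 2-DG from day 5 on.

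**Figure D4:**
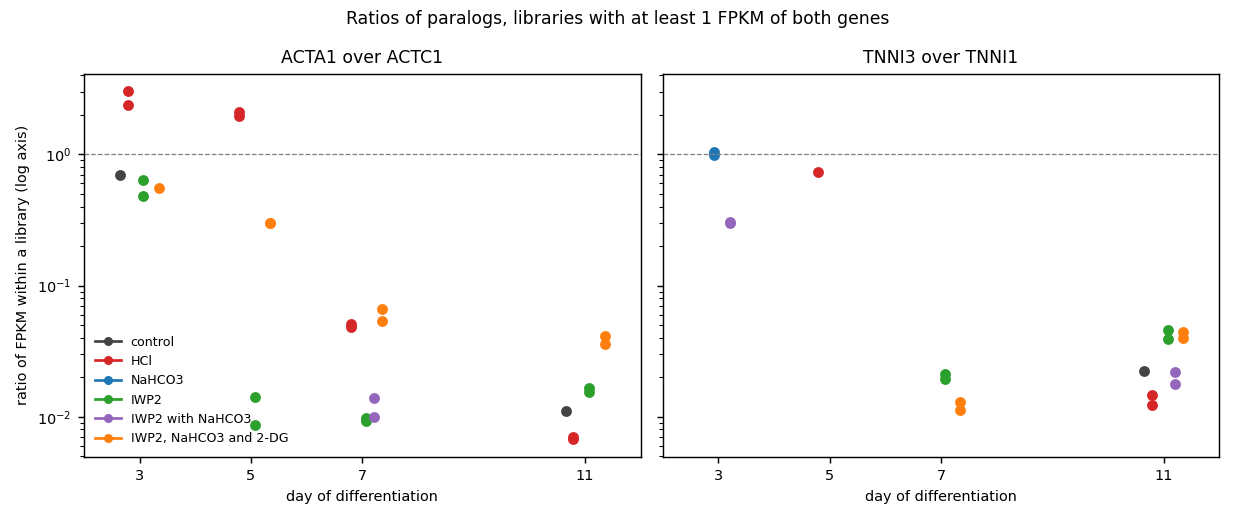
Ratio of FPKM of ACTA1 over ACTC1 (left) and of TNNI3 over TNNI1 (right) within each library that has at least 1 FPKM of both genes (log axis), by day of differentiation; points are libraries, shifted sideways by treatment, and the dashed line is a ratio of 1. ACTA1 exceeds ACTC1 only with HCl on days 3 and 5, and TNNI3 stays under 0.05 of TNNI1 on days 7 and 11.

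Comparisons of level between members depend on the length used. The deposited sizes count every annotated exon and are 8.07 times the principal transcript of TPM1 in GENCODE v29 and 5.47 times that of TNNT2, against 1.00 for ACTA1 and 1.26 for ACTC1. Per transcript length, TPM1 would be the highest of the 7 with IWP2 on day 7 where ACTC1 is the highest by FPKM, and TNNT2 would be the second where it is the fourth. The ratio of ACTA1 to ACTC1 with HCl on day 5 would be 1.62, and that of TNNI3 to TNNI1 with IWP2 on day 7 would be 0.0391. Fold changes of 1 gene do not depend on the length.

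In the order of the 6 treatments on each day, 140 pairs of neighbours could be compared over the 7 genes, and in 102 of them the libraries did not overlap. On day 5 the order was complete for TNNT2, TPM1, ACTC1 and ACTA1, with no overlap between any neighbours. On day 11 it was complete for TPM1, ACTC1 and ACTA1. On day 3, by contrast, 16 of 35 neighbours were apart. NaHCO3 had the lowest mean of the 6 treatments for all 7 members on days 7 and 11, although on day 7 its libraries overlapped those of the control for TNNI3 and ACTA1.

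The other genes of the filament were described with lists of related genes. Of 11 partners and paralogs of the members, 9 were tested. With HCl on day 5, 5 of the 9 were higher and 1 lower, with a median log2 change of 1.02 where the median of all genes was -0.0178 and 20% of genes passed. ACTG2, the smooth muscle gamma-actin, went the way of ACTA1 at a low level, 2.40 to 2.41 FPKM against 0 to 0.05. TNNT1, slow skeletal troponin T, stood at 15.2 to 16.9 FPKM against 2.39 to 2.95 (2.63 ± 0.24, adjusted p = 3.23e-08). ACTA2, the smooth muscle alpha-actin, went the other way, at 11.1 to 11.8 FPKM against 69.4 to 81.4 (-2.68 ± 0.19, adjusted p = 7.71e-10). With 2-DG on day 5, 5 of the 9 were higher and 0 lower, with a median of 1.65 where 16.5% of genes passed, among them ACTG2, TPM2 (2.18 ± 0.20, adjusted p = 3.12e-08) and ACTA2 (1.65 ± 0.18, adjusted p = 4.81e-07). ACTA2 was thus lower with HCl and higher with 2-DG against their own comparators. On day 11 with 2-DG the same list had 1 higher and 3 lower, where 21.1% of genes passed, and TNNT1 stood at 0.26 to 0.39 FPKM against 8.25 to 8.89 (-4.72 ± 0.26, adjusted p = 4.3e-16).

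Of 14 genes that set filament length, cap its ends or help to assemble it, 11 were tested on the later days. With IWP2 on day 7, 7 of them were higher than in the control and 0 lower, with a median log2 change of 1.93 where that of all genes was -0.0129 and 16.4% of genes passed, 8.5% upward. LMOD2, a leiomodin that lengthens the thin filament of heart muscle, stood at 3.45 to 4.82 FPKM against 0.13 to 0.16 (4.91 ± 0.49, adjusted p = 2.97e-07). XIRP1, an actin-binding protein of the intercalated disc, stood at 39.0 to 44.6 FPKM against 3.25 to 3.49 (3.73 ± 0.28, adjusted p = 5.13e-08). FHOD3, a formin needed to build sarcomeres, rose as well (3.50 ± 0.16, adjusted p = 5.78e-13). With NaHCO3 added to IWP2 on day 11, 8 of the 11 were lower (median -2.05), where 18.5% of genes passed and 8.7% downward. With 2-DG added on that day 8 were higher (median 2.70), where 21.1% passed and 9.32% upward. LMOD2 stood at 26.5 to 43.8 FPKM against 0.68 to 0.82 with and without 2-DG (5.56 ± 0.31, adjusted p = 1.47e-10). On day 5 with HCl, 3 of 10 were lower and 1 higher (median -0.115), where 20% of genes passed. TMOD1, the tropomodulin that caps the pointed end of cardiac thin filaments, stood at 0.4 to 0.59 FPKM against 17.3 to 17.4 (-5.08 ± 0.20, adjusted p = 2.15e-13), the same direction as TNNT2 and TNNI1.

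The thick filament, which pulls on the thin one, had 9 of 10 genes tested on the later days. With IWP2 on day 7, 8 of 9 were higher, with a median log2 change of 5.24, where 8.5% of all genes passed upward. On day 11, 8 were higher with 2-DG (median 5.06), where 9.32% passed upward, and 8 were lower with NaHCO3 added to IWP2 (median -2.94), where 8.7% passed downward. MYOM1, a protein of the M band, stood at 54.9 to 58.2 FPKM against 0.82 to 1.12 with IWP2 on day 7 (5.95 ± 0.48, adjusted p = 1.02e-07). MYH6, the atrial and early myosin heavy chain, stood at 1468 to 1635 FPKM against 31.1 to 40.2 (5.54 ± 0.78, adjusted p = 3.51e-05). MYL2, the ventricular light chain, was listed at 0 in both of these groups and stood at 5.47 to 6.62 FPKM against 0.07 to 0.08 on day 11 with and without 2-DG.

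Of 13 transcription factors known to act on sarcomere genes, all tested, 5 were lower with HCl on day 5 (median -0.990), where 20% of genes passed, and the others were not called. HAND2 stood at 0.71 to 0.98 FPKM against 53.3 to 64.1 (-6.09 ± 0.26, adjusted p = 3.89e-13), and MEF2C at 0.11 to 0.12 FPKM against 3.01 to 3.16 (-4.74 ± 0.25, adjusted p = 8.98e-12). TBX20 (-4.06 ± 0.44, adjusted p = 2.58e-07) and TBX5 (-3.15 ± 0.36, adjusted p = 4.72e-07) were lower as well. With 2-DG on day 5, 4 were higher and 2 lower (median 0.295), where 16.5% of genes passed. MYOCD stood at 33.1 to 34.6 FPKM against 2.91 to 3.25 (3.63 ± 0.23, adjusted p = 2.67e-10), and MEF2C rose (1.99 ± 0.17, adjusted p = 1.12e-08). SRF, named here because of the boxes shown above and after its values were seen, stood at 67.6 to 73.6 FPKM against 22.2 to 23.6 with and without 2-DG (1.80 ± 0.10, adjusted p = 1.66e-11). With HCl SRF stood at 55.8 to 58.1 FPKM against 30.1 to 31.0 (0.94 ± 0.09, adjusted p = 8.18e-08), short of the fold threshold. MYOCD was also named after its values were seen. With HCl on day 5 it was at 2.76 to 3.62 FPKM against 6.35 to 6.68 (-0.99 ± 0.22, adjusted p = 0.00109), also short of the fold threshold. The part of SRF and MYOCD in the level of ACTA1 was not tested.

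How alike the members were is given as Pearson's correlation of log2(FPKM + 1) over the 13 group means of days 7, 11 and 0, as a description, since all points share their libraries and the step from day 0. TNNT2 and ACTC1 were the most alike (0.985), and TNNT2 correlated with TNNC1 at 0.973 and with TNNI1 at 0.959. TNNI3 was the least alike, between 0.236 with TPM1 and 0.670 with ACTA1. ACTA1 lay between 0.527 with TNNI1 and 0.715 with TNNC1. These distances depend on the measure. By Spearman's rho over the same means, ACTA1 lay between 0.720 with TNNC1 and 0.890 with ACTC1. TNNI3 lay between 0.440 with TPM1 and 0.725 with ACTA1 and TNNC1. Over the 12 group means of days 3 and 5, ACTA1 and TNNT2 had a correlation of 0.141, and TNNI3 was negative with all other members, down to -0.839 with TNNI1.

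The genes outside the set with the most similar pattern over those 13 means, among 10982 genes ranked, differed by member. For TNNC1 they included MYL3, a myosin light chain (0.986), and HSPB7 (0.981). MYL3 stood at 0.170 ± 0.0566 FPKM (SD, n = 2) on day 0 and at 862 ± 108 with 2-DG on day 11. For TNNT2 they were RCSD1 (0.982), DENND5B (0.980) and YAF2 (0.977), and for TNNI1 SMARCD3 (0.989), DENND5B (0.981) and TMX4 (0.979). For ACTC1 they were MPPED2 (0.982), MYL4, the atrial light chain (0.981), and DENND5B (0.981), so DENND5B was named for 3 members. For TPM1 they were SMAD6 (0.972), POMGNT1 (0.969) and CAP2 (0.968). TNNI3 and ACTA1 had other neighbours. For TNNI3 they were TRDN, the triadin of the calcium release unit (0.951), RHOT1 (0.947) and PPAP2A (0.945). TRDN, like TNNI3, was lower in the control of day 7 (0.800 ± 0.127 FPKM) than on day 0 (12.8 ± 0.311). For ACTA1 they were PPP1R12B, a regulator of myosin phosphatase (0.949), LMOD2 (0.947) and ISOC1 (0.928). Of the 21 places, 3 held the same gene when ranked by Spearman's rho, so most names depend on the measure.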

How the data were processed

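RNA-seq libraries of 25 groups, 2 each, were deposited by the authors as counts per gene beside FPKM in 2 tables, 24 libraries of days 3 and 5 and 26 of days 7, 11 and 0. Reads had been trimmed with cutadapt 1.9.1, aligned with HISAT2 2.0.1 and counted with HTSeq 0.6.1 on GRCh37, per the submitters' processing notes. The FPKM the authors deposited use a gene size that covers all annotated exons.

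From the counts, edgeR 4.0.16 was fitted within each table (TMM factors, quasi-likelihood test with robust moderation, 1 coefficient per group) to genes that reached 1 FPKM in 2 or more libraries: 17286 genes on days 3 and 5 and 18451 on the later days, which kept 99.57% and 99.63% of counts. In all 45 comparisons were tested, with Benjamini-Hochberg adjustment over all genes of each. The fit was tested on simulated counts. The alternatives were DESeq2 1.42.0, median-ratio factors, no filter, limma 3.58.1 on log2(FPKM + 1) or log2(FPKM + 0.1), a replicate block, the libraries of a day alone, leaving out the day 3 libraries with 2-DG, and leaving out each library in turn. Total counts per library limit the precision for TNNI3 and for TNNT2 on day 3. Counting intervals are exact, at 95%, and cover counting error only.

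Named genes were the 7 members, up to 4 called genes of each list with the largest change, and for each member the 3 genes with the highest correlation among those with a group mean of at least 5 FPKM. One gene chosen by the last rule is not reported here. The members and lists were chosen with earlier results of these data known. Scripts ran in R 4.3.3 and Python 3.11.15 with pandas 2.3.3 and scipy 1.17.1.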

Additional observations from a re-analysis of the deposited data

Results flagged for a closer look

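Effects that differed between days, or between cultures with and without IWP2, by a test of the difference itself are listed here as differences of log2 fold changes (edgeR's quasi-likelihood test, Benjamini-Hochberg adjusted p under 0.05).

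The effect of HCl on day 5 minus that on day 3 was -7.54 for TNNT2, -3.81 for TNNI1, -2.30 for TPM1, -1.61 for ACTC1 and 3.53 for ACTA1. That of HCl on day 11 minus day 7 was 1.20 for TNNT2, 1.23 for TNNI1, 2.34 for TNNC1, 1.08 for ACTC1 and -2.23 for ACTA1. Without replicate 1 of HCl on day 7 the TNNT2 and ACTC1 differences of the later days were not called, nor was that of ACTC1 without replicate 1 of the control on day 11. Among the members called, the early difference was positive for ACTA1 and the later one negative for ACTA1. TNNI3 was called in neither difference, and TNNC1 was not called in the early one.

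The effect of IWP2 on day 5 minus that on day 3 was 2.92 for TNNT2, 1.54 for TNNI1, -2.93 for TNNI3 and 1.19 for TPM1. The call of TNNT2 was lost without replicate 2 of the control on day 3, and those of TNNI1 and TNNI3 were each lost without any 1 of 3 libraries, among them replicate 1 of IWP2 on day 5. On day 11 minus day 7 the effect of IWP2 was -1.19 for TNNT2, -4.26 for TNNI3, -2.37 for TNNC1 and -1.16 for ACTC1, the last not called without replicate 2 of the control on day 11. The TNNI3 value rests on 3 control counts on day 7, ran from -7.81 to -0.49 over the alternatives and was not called with limma and a pseudocount of 1.

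The effect of NaHCO3 with IWP2 minus without was -1.06 for ACTC1 on day 5, -1.71 for TNNT2, -2.35 for TNNC1 and -1.82 for ACTC1 on day 7, and -1.14 for TNNI1 and -1.42 for ACTC1 on day 11. The call of ACTC1 on day 5 was lost in 9 alternatives, among them both limma fits.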

How the results depend on the processing

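Of 315 tests of a member in a comparison, 191 were called. Of these 157 were called under every alternative run and 34 were lost under at least 1, and 18 others were gained under at least 1. In 1 of 3642 recomputed values a test that was not called became called in the opposite direction: the NaHCO3 effect on TNNI3 with IWP2 minus without on day 11 was -1.23 with limma and a pseudocount of 1, where TNNI3 is low, against 0.24. The labels do not pair libraries across groups. Deviations of same-numbered libraries correlated at -0.213 to 0.556 over 66 pairs of groups on days 3 and 5 and at -0.171 to 0.204 over 78 pairs on the later days, and the replicate block changed 0 of 315 calls.

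Counts of members called moved as follows, and the cause was not tested. With limma and a pseudocount of 1 they became 1 for NaHCO3 added to IWP2 on day 3 (from 2), 0 for 2-DG on day 3 (from 1), 1 for NaHCO3 on day 5 (from 2), 0 for NaHCO3 added to IWP2 on day 5 (from 1), 0 for the NaHCO3 difference on day 5 (from 1), 5 on day 7 (from 3) and 4 on day 11 (from 2), 0 for NaHCO3 from day 7 to 11 (from 1) and 1 for IWP2 with NaHCO3 over those days (from 3). With a pseudocount of 0.1 they became 1 for NaHCO3 added to IWP2 on day 3, 0 and 5 for the NaHCO3 difference on days 5 and 7, and 0 for NaHCO3 from day 7 to 11. DESeq2 gave 5 for the NaHCO3 difference on day 7, and the libraries of day 3 alone gave 1 for NaHCO3 added to IWP2. With each library left out in turn the counts ran as 1 to 1 for NaHCO3 added to IWP2 on day 3, 0 to 2 for 2-DG on day 3, 1 to 2 for NaHCO3 on day 5, 3 to 5 for IWP2 on day 5, 0 to 1 for NaHCO3 added to IWP2 and for the NaHCO3 difference on day 5, 2 to 4 for the IWP2 effect on day 5 minus day 3, 2 to 7 for HCl on day 7, and 1 to 3 for NaHCO3 on day 7. From day 7 to 11 they ran as 2 to 4 in the control, 0 to 1 with NaHCO3, 0 to 1 with IWP2, 1 to 2 with 2-DG, and 3 to 5 for the HCl effect. Over all genes 52 of 522 recomputed counts moved by more than 1.5 times. Of these 41, all lower, came from limma with a pseudocount of 1. The 106 genes called with IWP2 on day 3 became 184 without the filter, 57 with limma and a pseudocount of 0.1, 43 with a pseudocount of 1, 42 with the libraries of day 3 alone, 165 without the day 3 libraries with 2-DG, and 52 to 60 without any 1 of 3 libraries. The 620 with 2-DG on day 3 became 335 in a fit to that day only, and 2428 without replicate 2 of 2-DG. Ratios between members per principal transcript, an alternative chosen after seeing the data, scale every library by 1 factor per pair of genes and so keep the order of groups by construction.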
